A study of Mus musculus with 9 samples.

Results

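The genes described here belong to 2 families of enzymes that take part in dopamine breakdown. They are the 2 monoamine oxidases Maoa and Maob and 7 aldehyde dehydrogenases, Aldh1a1, Aldh1a7, Aldh2, Aldh1b1, Aldh3a2, Aldh7a1 and Aldh9a1. Some of these dehydrogenases act mainly on other aldehydes. The genes are 9 of the 24487 rows of a table of gene expression and were chosen by their symbols, each of which names 1 row. RNA sequencing was done on 4 libraries of dopaminergic neurons of the mouse midbrain and 5 libraries of whole mouse midbrain, all from mice with a C57BL/6 background. The labels give no age, sex, transgene or treatment, and do not record how RNA of the dopaminergic neurons was obtained and whether each library is an animal of its own, so the p-values cover the spread among these libraries alone, which may be technical. The table's title uses the term bacTRAP, a method that captures tagged ribosomes of 1 cell type with the RNA they carry.

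In dopaminergic neurons, monoamine oxidases on the outer mitochondrial membrane turn dopamine that has leaked from vesicles or been taken up again into a reactive aldehyde. Aldehyde dehydrogenases oxidize that aldehyde to an acid, and aldehyde and aldose reductases turn it into an alcohol. Aldh1a1 is a cytosolic enzyme that also makes retinoic acid and is known as a marker of a ventral group of dopaminergic neurons in the mouse substantia nigra, whereas Aldh2 works in the mitochondrial matrix.

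The values are FPKM, which are reads scaled by transcript length and library depth, so levels of different genes can be set side by side. The smallest steps between values correspond to about 47.2 to 62.5 megareads in the dopaminergic libraries and 16.2 to 33.5 in the whole midbrain libraries, if each column holds the values of 1 library as Cufflinks wrote them, which the form of the whole midbrain values leaves uncertain. Whole midbrain library 2 stood apart: Pearson's r across genes between its log2 values and those of the rest of its group was 0.903 to 0.906, and its FPKM summed to 409130, against 309275 to 313252 in the other whole midbrain libraries and 506466 to 521822 in the dopaminergic ones. The 4 dopaminergic markers Th, Slc6a3, Slc18a2 and Ddc summed to 3542 to 3939 FPKM in dopaminergic libraries and to 199 to 229 in whole midbrain. All 12 astrocyte markers were lower in each dopaminergic library than in any whole midbrain library, with sums of 188 to 234 against 1643 to 1749 FPKM and none at 0. In such bulk samples, fewer cells of a type and less RNA per cell cannot be told apart, and any effect of the isolation coincides with the groups.

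Of the 9 genes, 3 rose in dopaminergic neurons (Aldh1a7, Aldh1a1 and Maoa), 4 fell (Aldh2, Maob, Aldh7a1 and Aldh9a1), Aldh3a2 did not pass and Aldh1b1 was under the minimum mean of 1 FPKM. Of all 13106 genes tested, 38.3 percent were called higher and 36.0 percent lower at an adjusted p under 0.05 (limma with Benjamini-Hochberg adjustment), so a called difference is common in this comparison, and 7 of 8 stands beside 74.2 percent of all genes. The median log2 fold change of the 8 genes tested was -0.29, beside 0.04 over all genes. All log2 fold changes are of log2(FPKM + 1), dopaminergic neurons minus whole midbrain, and understate the change of genes with low values.

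**Figure D1:**
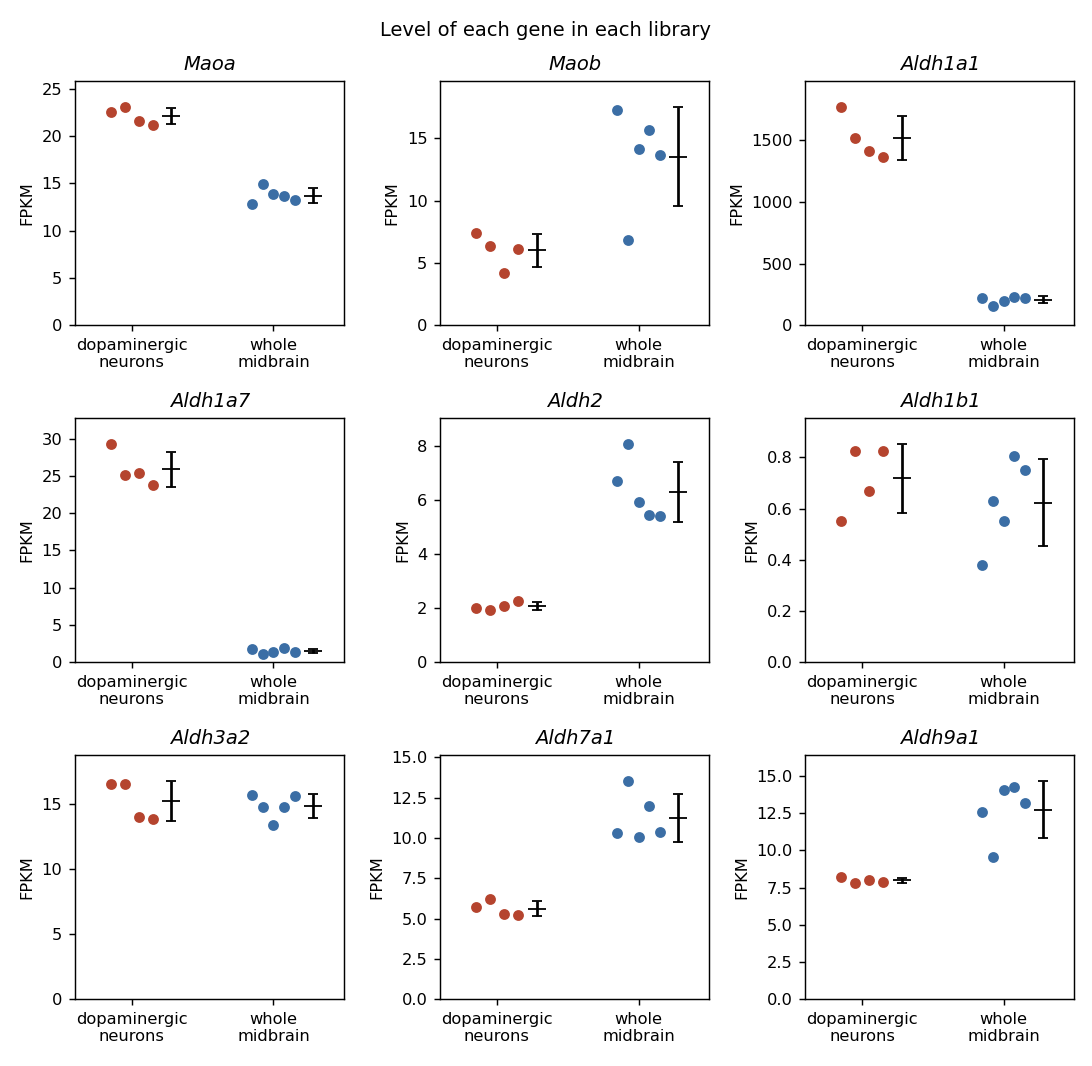
Level in FPKM (vertical axes, each from 0) of the 9 genes in each dopaminergic library (red) and each whole midbrain library (blue), with the group mean and SD in black (n = 4 and n = 5). Aldh1a1 and Aldh1a7 sit far higher in the dopaminergic libraries, Maoa moderately higher, and Aldh2, Aldh7a1 and Aldh9a1 lower without overlap, while whole midbrain library 2 brings the Maob groups into overlap.

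The monoamine oxidases moved in opposite directions. Maoa (chromosome X, 16619698 to 16687812, plus strand, mm10), whose enzyme prefers serotonin and noradrenaline and also oxidizes dopamine, was at 22.5, 23.1, 21.6 and 21.2 FPKM in dopaminergic libraries 1 to 4, against 12.8, 14.9, 13.9, 13.7 and 13.2 FPKM in whole midbrain libraries 1 to 5. Every dopaminergic library lay above every whole midbrain library. The log2 fold change of Maoa was 0.65 (SE 0.067, limma adjusted p = 9.26e-06). That call depends on the scaling: with FPKM rescaled to TPM, the log2 fold change of Maoa was 0.04 (limma adjusted p = 0.669), under a scaling that moved the median of all genes to -0.55.

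Maob (chromosome X, 16709281 to 16817366, minus strand) is the neighbour of Maoa in tail-to-tail orientation, and its enzyme is known from serotonergic neurons and astrocytes. It was at 7.42, 6.33, 4.19 and 6.10 FPKM in dopaminergic libraries 1 to 4, against 17.2, 6.84, 14.1, 15.7 and 13.7 FPKM in whole midbrain libraries 1 to 5. Only whole midbrain library 2, at 6.84 FPKM, overlapped the dopaminergic range. The log2 fold change of Maob was -1.02 (SE 0.24, limma adjusted p = 0.00293), and it was -1.22 without whole midbrain library 2. The 3 serotonergic markers Tph2, Slc6a4 and Fev summed to 6.45 to 12.9 FPKM in dopaminergic libraries and 48.7 to 110 FPKM in whole midbrain, with none at 0 throughout. Whole midbrain library 2, the lowest of its group in Maob, had its highest serotonergic sum (110 FPKM) and its lowest astrocyte sum (1643 FPKM). The part of either cell type in the lower Maob level was not tested.

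The summed level of both oxidases overlapped in FPKM as deposited, at 25.8 to 29.9 FPKM in dopaminergic neurons and 21.8 to 30.04 FPKM in whole midbrain. As TPM, an alternative chosen after seeing the data, the sum was 49.5 to 59.1 in dopaminergic libraries, against 53.2 in whole midbrain library 2 and 87.0 to 96.6 in the other whole midbrain libraries. The makeup of the sum differed. Maoa made up 75.2, 78.5, 83.7 and 77.7 percent of that sum in dopaminergic libraries 1 to 4, against 42.6, 68.6, 49.6, 46.6 and 49.2 percent in whole midbrain libraries 1 to 5. The ratio of Maoa to Maob, which the scaling of a library leaves nearly untouched, ran from 3.03 to 5.15 across dopaminergic libraries and from 0.742 to 2.18 across whole midbrain libraries. On the log2 scale the ratio averaged 1.74 ± 0.27 in dopaminergic neurons and 0.07 ± 0.55 in whole midbrain (SD, n = 4 and n = 5), a difference of 1.67 (exact permutation test over the libraries, two-sided, p = 0.0159, the smallest it can give, and 0.0159 after Benjamini-Hochberg adjustment over the 4 ratios tested). Whole midbrain library 2 gave the highest ratio of its group, and the difference was 1.90 without it.

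**Figure D2:**
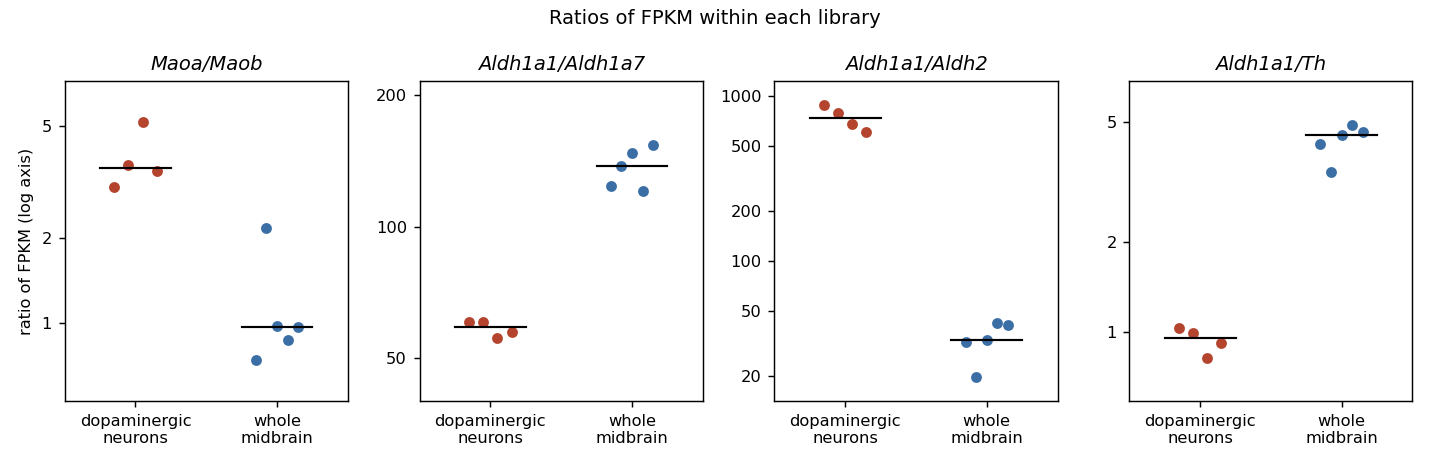
Ratio of FPKM of the named genes within each library (vertical axes, logarithmic) for dopaminergic libraries (red) and whole midbrain libraries (blue), with group medians as bars. The groups do not overlap in any of the 4 ratios: Maoa/Maob and Aldh1a1/Aldh2 are higher and Aldh1a1/Aldh1a7 and Aldh1a1/Th lower in dopaminergic libraries.

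Aldh1a1 (chromosome 19, 20601982 to 20643462, plus strand, mm10) had the highest level of the 9 genes in both groups. It was at 1769, 1523, 1413 and 1365 FPKM in dopaminergic libraries 1 to 4, against 217, 159, 198, 228 and 222 FPKM in whole midbrain libraries 1 to 5. By level it ranked between 17 and 43 among all rows of the table in the dopaminergic libraries and between 179 and 409 in the whole midbrain libraries. Its mean was 7.41-fold higher in dopaminergic neurons, with a log2 fold change of 2.89 (SE 0.14, limma adjusted p = 3.93e-08). Under quantile normalization the log2 fold change of Aldh1a1 was 1.84 (limma adjusted p = 4.25e-05).

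Beside Th, the dopamine-synthesizing enzyme whose gene marks all dopaminergic neurons, Aldh1a1 stood differently in the 2 groups. The ratio of Aldh1a1 to Th in FPKM was 1.03, 0.988, 0.821 and 0.916 in dopaminergic libraries 1 to 4, against 4.22, 3.41, 4.53, 4.91 and 4.64 in whole midbrain libraries 1 to 5. On the log2 scale the ratio averaged -0.10 ± 0.14 in dopaminergic neurons and 2.08 ± 0.20 in whole midbrain (SD), a difference of -2.18 (exact permutation test, two-sided, p = 0.0159, and 0.0159 after adjustment over the 4 ratios). Both genes were higher in dopaminergic neurons, Aldh1a1 by less than Th.

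Aldh1a7 (chromosome 19, 20692953 to 20727556, minus strand), a rodent paralog, lies beside Aldh1a1 on the opposite strand. It was at 29.2, 25.1, 25.4 and 23.8 FPKM in dopaminergic libraries 1 to 4, against 1.76, 1.15, 1.34, 1.89 and 1.44 FPKM in whole midbrain libraries 1 to 5. The mean was 17.1-fold higher in dopaminergic neurons, and the log2 fold change was 3.42 (SE 0.10, limma adjusted p = 3.15e-09), the largest among the 8 genes tested. That rank depends on the pseudocount: with a pseudocount of 5 the log2 fold change was 2.24, against 2.86 for Aldh1a1. The level in whole midbrain rests on about 40.6 to 110 reads per library.

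The coding sequences of Aldh1a1 and Aldh1a7 are both 1506 bases long and identical at 92.0 percent of 1504 aligned bases (GENCODE M21 transcripts, GRCm38). The sequences below show why reads of the pair are hard to separate in some places and easy in others. The first is 100 bases, the read length of this study, from coding base 757 to 856, and is the same in both genes. The other lines are the 100 bases with the most differences, coding base 879 to 978, with the 21 differing bases in capitals.
Aldh1a1 and Aldh1a7, coding base 757 to 856: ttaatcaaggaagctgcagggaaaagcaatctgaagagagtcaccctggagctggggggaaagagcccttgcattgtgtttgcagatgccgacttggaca
Aldh1a1, coding base 879 to 978: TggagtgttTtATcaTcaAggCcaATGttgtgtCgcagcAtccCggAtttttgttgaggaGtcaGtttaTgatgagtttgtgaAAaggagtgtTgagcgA
Aldh1a7, coding base 879 to 978: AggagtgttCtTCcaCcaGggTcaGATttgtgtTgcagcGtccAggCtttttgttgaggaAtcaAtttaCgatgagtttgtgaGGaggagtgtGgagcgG

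Of the 1967 windows of 100 bases in the Aldh1a7 transcript, 167 (8.49 percent) occurred in Aldh1a1 with at most 2 mismatches, and in no other gene's transcripts. How the authors' counting split reads that fit both genes is not given in the sources used here, so the level of Aldh1a7, the lower gene, is uncertain. Aldh1a7 stood at 1.65 to 1.79 percent of Aldh1a1 in dopaminergic libraries and at 0.65 to 0.83 percent in whole midbrain libraries, ranges that do not overlap. The ratio of Aldh1a1 to Aldh1a7 was 55.7 to 60.6 in dopaminergic libraries and 121 to 154 in whole midbrain libraries. On the scale of log2(FPKM + 1) this ratio averaged 5.82 ± 0.063 in dopaminergic neurons and 6.35 ± 0.11 in whole midbrain (SD), a difference of -0.53 (exact permutation test, two-sided, p = 0.0159, and 0.0159 after adjustment over the 4 ratios). The difference was 0.62, of opposite sign, with a pseudocount of 5, which is above every whole midbrain level of Aldh1a7, and without a pseudocount it was -1.22. With both genes summed to 1 row the log2 fold change was 2.90.

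The promoters of these neighbours share sequence next to the start of transcription. Their last 150 bases before the start (RefSeq, GRCm38.p6) are printed here because both genes rose, and the capitals mark the longest run without a difference, 65 bases that end 30 bases before the start in both genes. The RefSeq start of Aldh1a1 lies upstream of the span given above, which begins at 20601982, and positions here count from the RefSeq start.
Aldh1a1, chr19:20601818-20601967, plus strand: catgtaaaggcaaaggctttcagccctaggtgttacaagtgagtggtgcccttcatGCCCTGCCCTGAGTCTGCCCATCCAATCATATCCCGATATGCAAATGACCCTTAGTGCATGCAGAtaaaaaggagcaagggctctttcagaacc
Aldh1a7, chr19:20727557-20727706, minus strand: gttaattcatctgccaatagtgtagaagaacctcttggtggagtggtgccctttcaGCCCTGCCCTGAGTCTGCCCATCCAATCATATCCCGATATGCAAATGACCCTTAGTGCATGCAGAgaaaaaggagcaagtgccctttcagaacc

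Within 250 bases before the start, 175 aligned bases of the pair were identical at 91.4 percent. Both strands were searched for 5 motifs. CCAAT, a common promoter element, began 72 bases before the start in both genes, inside the shared run, and a further CCAAT lay upstream of that run in Aldh1a7 alone, while 33.8 percent of 32851 mouse promoters of that length hold it. TATAAA was found in Aldh1a7 alone, 244 bases before its start, and in 12.4 percent of promoters. The letters TAATCC (a core bound by homeodomain factors such as Pitx3, in 6.25 percent of promoters), AAGGTCA (the core bound by Nr4a2, in 4.08 percent) and GGGCGG (the core bound by Sp1, in 32.7 percent) were in neither window. Such matches describe the letters and do not show that a factor binds.

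The mitochondrial dehydrogenase Aldh2 (chromosome 5, 121567687 to 121593824, minus strand), a main enzyme for acetaldehyde that also takes the aldehyde of dopamine, fell. It was at 2.01, 1.94, 2.09 and 2.27 FPKM in dopaminergic libraries 1 to 4, against 6.71, 8.06, 5.94, 5.43 and 5.41 FPKM in whole midbrain libraries 1 to 5, with no overlap. The log2 fold change of Aldh2 was -1.24 (SE 0.11, limma adjusted p = 3.65e-06). Its exons share 130 bases with Gm42879 on the opposite strand, and nothing in the sources used here says that reads were assigned by strand, so reads of such overlaps cannot be told apart.

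The ratio of Aldh1a1 to Aldh2 was 603 to 882 in dopaminergic libraries and 19.7 to 42.0 in whole midbrain libraries. On the log2 scale it averaged 8.94 ± 0.22 in dopaminergic neurons and 4.82 ± 0.41 in whole midbrain (SD), a difference of 4.13. The exact permutation test (two-sided) gave p = 0.0159, and 0.0159 after adjustment over the 4 ratios. In every dopaminergic library Aldh1a1 was above, and Aldh2 below, its level in every whole midbrain library. The ratio therefore had to separate the groups, and its p had to be the smallest the test can give. That p adds nothing to the calls of Aldh1a1 and Aldh2. Aldh1b1 (chromosome 4, 45799022 to 45804608, plus strand), also mitochondrial and close to Aldh2 in sequence, was low in both groups. It was at 0.551, 0.824, 0.669 and 0.826 FPKM in dopaminergic libraries 1 to 4, against 0.378, 0.631, 0.5496, 0.806 and 0.7499 FPKM in whole midbrain libraries 1 to 5. The groups overlapped, and without the filter on low values the log2 fold change of Aldh1b1 was 0.08 (limma adjusted p = 0.446). At these depths the values correspond to about 56.1 to 105 reads in dopaminergic libraries and 18.7 to 52.2 in whole midbrain libraries.

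The 3 remaining dehydrogenases act mainly on other aldehydes. Aldh3a2 (chromosome 11, 61244755 to 61267127, minus strand) oxidizes long-chain fatty aldehydes and was at 16.5, 16.5, 14.0 and 13.8 FPKM in dopaminergic libraries 1 to 4, against 15.7, 14.8, 13.4, 14.8 and 15.6 FPKM in whole midbrain libraries 1 to 5. The groups overlapped, and the log2 fold change of Aldh3a2 was 0.03 (95% interval -0.15 to 0.21, limma adjusted p = 0.758). Rescaled to TPM it was -0.60 and passed (limma adjusted p = 0.00114), close to the median of all genes on that scale.

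Aldh7a1 (chromosome 18, 56525736 to 56572939, minus strand), an enzyme of lysine breakdown, was at 5.71, 6.24, 5.27 and 5.23 FPKM in dopaminergic libraries 1 to 4, against 10.3, 13.5, 10.03, 11.98 and 10.36 FPKM in whole midbrain libraries 1 to 5. The log2 fold change of Aldh7a1 was -0.88 (SE 0.099, limma adjusted p = 1.78e-05), and its exons share 300 bases with Phax on the opposite strand. Aldh9a1 (chromosome 1, 167349991 to 167368530, plus strand), which acts on aminoaldehydes in carnitine and GABA synthesis, was at 8.21, 7.78, 8.02 and 7.91 FPKM in dopaminergic libraries 1 to 4, against 12.6, 9.59, 14.1, 14.3 and 13.2 FPKM in whole midbrain libraries 1 to 5. The log2 fold change of Aldh9a1 was -0.60 (SE 0.11, limma adjusted p = 0.00051). Neither gene's groups overlapped.

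**Figure D3:**
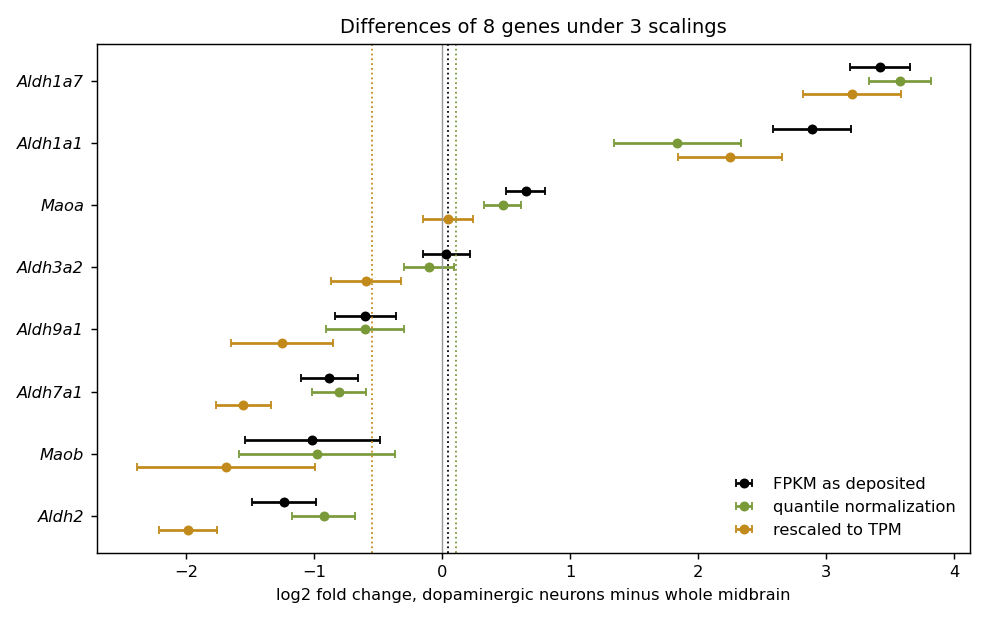
Log2 fold change of the 8 genes tested (horizontal axis, dopaminergic neurons minus whole midbrain) with 95% intervals, for FPKM as deposited (black), after quantile normalization (green) and rescaled to TPM (orange), with the median of all genes tested under each scaling as a dotted line. Aldh1a7 and Aldh1a1 stay high and Aldh2, Maob, Aldh7a1 and Aldh9a1 stay low under each of these 3 scalings, while Maoa comes to 0.04 and Aldh3a2 to -0.60 in TPM.

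As TPM, whose median over all genes was -0.55, the log2 fold changes were -1.99 for Aldh2, -1.69 for Maob, -1.55 for Aldh7a1 and -1.25 for Aldh9a1. Maoa stood 0.59 above that median, beside 0.61 above the median of FPKM as deposited, 0.58 with upper-quartile scaling and 0.37 with quantile normalization.

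Summed over the 7 dehydrogenases, the level was 1419 to 1831 FPKM in dopaminergic neurons and 206 to 277 FPKM in whole midbrain. Aldh1a1 alone made up 96.2 to 96.6 percent of that sum in dopaminergic libraries and 76.9 to 82.6 percent in whole midbrain libraries. Without Aldh1a1 the other 6 summed to 53.9 to 62.2 FPKM in dopaminergic neurons and 45.3 to 49.1 FPKM in whole midbrain. That order rests on Aldh1a7, whose level is uncertain, at 23.8 to 29.2 FPKM in dopaminergic and 1.15 to 1.89 FPKM in whole midbrain libraries. Of the rest, Aldh2, Aldh7a1 and Aldh9a1 were lower in dopaminergic neurons, and the groups overlapped in Aldh3a2 and Aldh1b1. The order also depends on the scaling, as TPM, also chosen after seeing the data, shows. As TPM the 6 without Aldh1a1 summed to 103 to 123 in dopaminergic libraries and 117 to 157 in whole midbrain libraries. Whole midbrain library 2 was the lowest of its group in that sum. The sum of all 7 stayed higher in dopaminergic libraries as TPM (2719 to 3614, against 504 to 884). Aldh2 made up 0.109 to 0.160 percent of the sum of 7 in dopaminergic libraries and 1.96 to 3.91 percent in whole midbrain libraries.

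By level, the order in dopaminergic neurons was Aldh1a1, Aldh1a7, Maoa, Aldh3a2, Aldh9a1, Maob, Aldh7a1, Aldh2 and Aldh1b1, where Maob and Aldh7a1 overlapped and every other pair of neighbours did not. In whole midbrain the order was Aldh1a1, Aldh3a2, Maoa, Maob, Aldh9a1, Aldh7a1, Aldh2, Aldh1a7 and Aldh1b1, where each neighbour from Aldh3a2 to Aldh7a1 overlapped the next. Aldh1a7 thus stood above Maoa in dopaminergic neurons and below Aldh2 in whole midbrain.

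The falls among these genes were shallower than those of the median glial marker. Aldh2 stood at 30.7 to 35.9 percent of its whole midbrain mean in the dopaminergic libraries, Maob at 31.0 to 54.9 percent, Aldh7a1 at 46.6 to 55.5 percent and Aldh9a1 at 61.1 to 64.5 percent. The median astrocyte marker stood at 4.20 to 6.37 percent, the median oligodendrocyte marker at 8.69 to 17.5 percent and the median microglial marker at 4.05 to 7.02 percent. Single markers came closer: by group means Aldoc, an astrocyte marker, stood at 28.9 percent and Cnp, an oligodendrocyte marker, at 26.1 percent, beside 32.9 percent for Aldh2. These shares are a description, with no test of the difference.

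**Figure D4:**
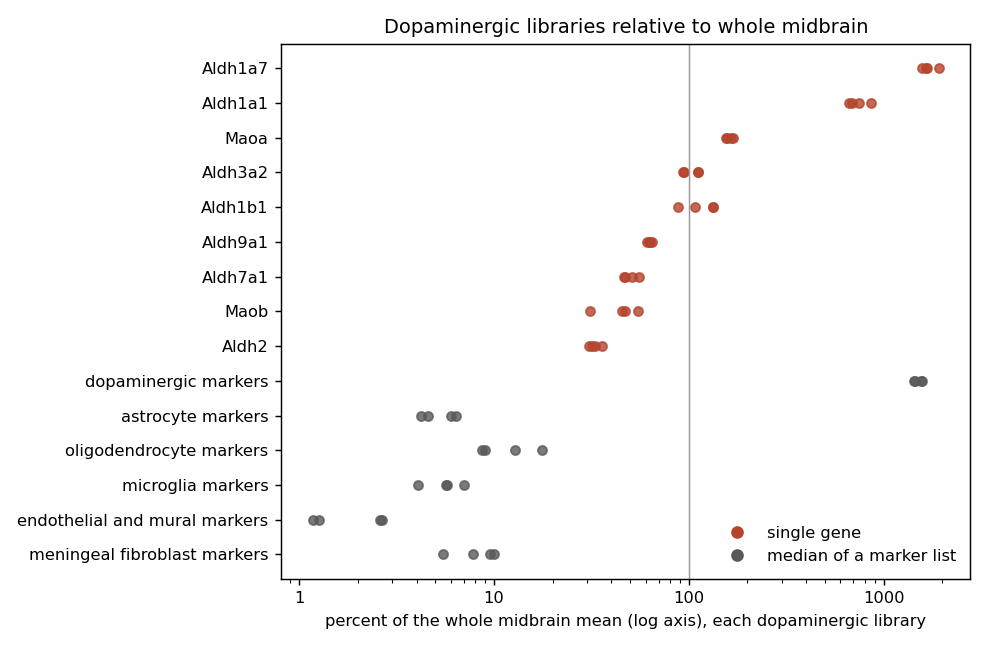
Level in each dopaminergic library as a percent of the whole midbrain mean (horizontal axis, logarithmic) for the 9 genes (red) and for the median gene of 6 lists of cell type markers (grey). Aldh2, the lowest of the 9, sits at 30.7 to 35.9 percent, above the median astrocyte marker at 4.20 to 6.37 percent, and Aldh1a7 lies near the median dopaminergic marker.

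Other genes of the pathway were read from the same fit, where 38.3 percent of all genes tested were called higher and 36.0 percent lower. Of 13 genes of the reduction and conjugation of aldehydes and catechols, 8 could be tested, of which 5 rose and 1 fell. Akr1a1, an aldehyde reductase, was at 464 ± 16.5 FPKM in dopaminergic neurons and 148 ± 24.3 FPKM in whole midbrain (SD, n = 4 and n = 5), with a log2 fold change of 1.65 (limma adjusted p = 5.78e-07). Akr7a5, another aldehyde reductase, had a log2 fold change of 1.38 (limma adjusted p = 0.0022), with whole midbrain library 2 at 14.8 FPKM above the 3.94 to 4.84 FPKM of the rest of its group.

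Sulfotransferases differed among themselves. Sult1a1, which sulfates phenols and catecholamines, fell with a log2 change of -2.11 and was at 0.181 ± 0.11 FPKM in dopaminergic neurons and 4.35 ± 1.95 FPKM in whole midbrain. Sult4a1, a brain member whose substrates are not settled, rose by 0.94 (limma adjusted p = 0.0096). It did not pass under quantile normalization or as TPM, and whole midbrain library 2 was at 170 FPKM beside 63.7 to 66.3 FPKM in the rest of its group. The median log2 fold change of the 8 genes was 0.60, beside 0.04 over all genes. The number that rose was 7 without whole midbrain library 2, where 5646 of all 13106 genes rose. As TPM 2 rose and 3 fell, beside 2248 and 7393 of all 13106 genes. Akr1b3, an aldose reductase named after its value was seen, was the weakest call (limma adjusted p = 0.0493).

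Of 13 other aldehyde dehydrogenases, 7 could be tested, of which 5 fell and 1 rose. Their median was -1.07 on the log2 scale, beside 0.04 over all genes, of which 36.0 percent fell and 38.3 percent rose. As TPM 6 of the list fell and none rose, beside 7393 and 2248 of all 13106 genes. The gene that rose was Aldh18a1, of proline synthesis, and Aldh1l2 was among those that fell; both were picked out after their values were seen. Aldh1l1, a folate enzyme and astrocyte marker, was at 0.794 ± 0.12 FPKM in dopaminergic neurons and 7.42 ± 0.90 FPKM in whole midbrain, a log2 fold change of -2.23 (limma adjusted p = 3.30e-08). Aldh6a1, of valine breakdown, fell with a log2 change of -1.13, and Aldh5a1, of GABA breakdown, with -0.42. For Aldh5a1 whole midbrain library 2, at 26.3 FPKM, lay inside the dopaminergic range of 25.9 to 29.4 FPKM. The rest of its group was at 40.8 to 41.1 FPKM. Antisense genes overlap the exons of Aldh1l1, Aldh6a1 and Aldh5a1 over 499, 1078 and 796 bases. The call of Aldh5a1 ended under median centring (limma adjusted p = 0.0505).

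Aldh1a2, which makes retinoic acid and is known from the meninges, was at 0.364, 0.314, 1.09 and 1.05 FPKM in dopaminergic libraries 1 to 4, against 5.95, 14.6, 0.766, 10.22 and 6.93 FPKM in whole midbrain libraries 1 to 5, a log2 fold change of -2.08 (limma adjusted p = 0.00496). Whole midbrain library 3 lay inside the dopaminergic range. The 6 meningeal markers summed to 63.5, 86.8, 16.3, 95.4 and 72.9 FPKM in whole midbrain libraries 1 to 5, with library 3 again the lowest, and to 4.28 to 10.7 FPKM in dopaminergic libraries. Their part in the difference of Aldh1a2 was not tested.

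Of 16 genes that handle retinoids, the substrates and products of Aldh1a1, 11 could be tested, of which 3 rose and 4 fell. Their median was -0.23 on the log2 scale, beside 0.04 over all genes, of which 38.3 percent rose and 36.0 percent fell. As TPM 1 of the list rose and 7 fell, beside 2248 and 7393 of all 13106 genes. Rdh13 was among those that rose, and Rdh5 and Dhrs4 among those that fell, all named after their values were seen. Cyp26b1, which degrades retinoic acid, was at 7.72 ± 0.61 FPKM in dopaminergic neurons and 3.21 ± 1.14 FPKM in whole midbrain (SD), a log2 fold change of 1.102 (limma adjusted p = 0.000843). Rbp4, a retinol carrier, rose by 1.07 and did not pass as TPM (limma adjusted p = 0.0768). Crabp2, which binds retinoic acid inside cells, fell with a log2 change of -1.88, and whole midbrain library 3 had the lowest value of its group.

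**Figure D5:**
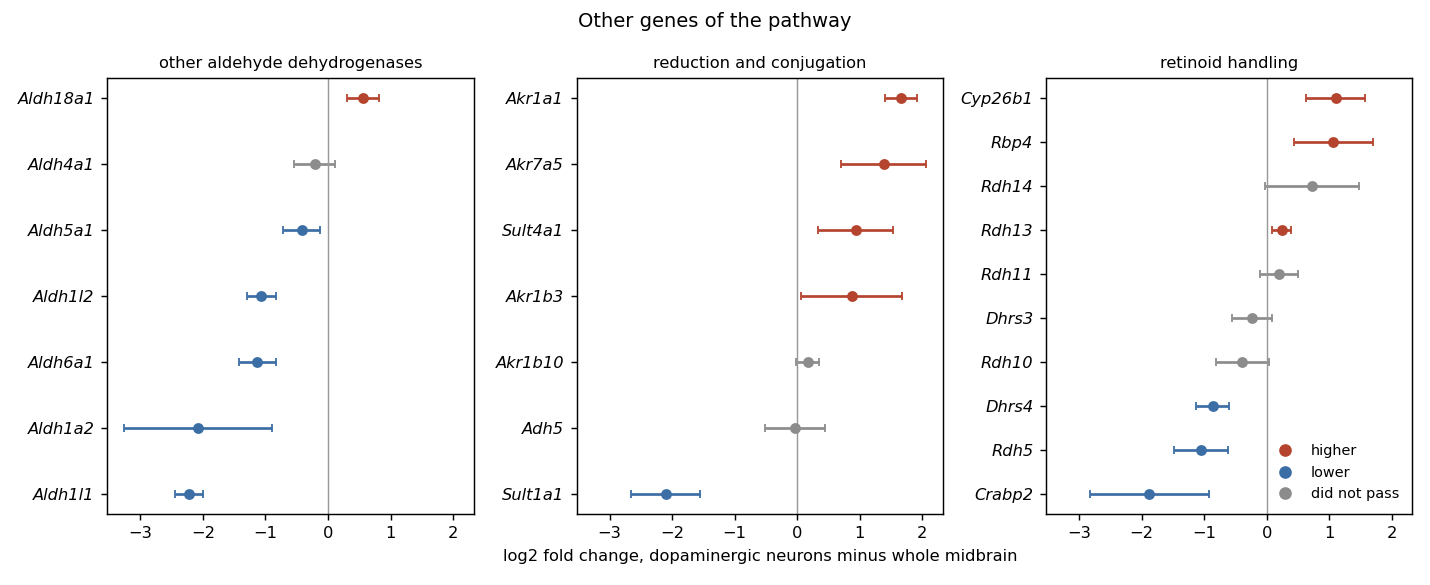
Log2 fold change (horizontal axes, dopaminergic neurons minus whole midbrain) with 95% intervals of all but 2 of the tested genes of 3 lists, coloured by whether they passed as higher (red) or lower (blue) or did not pass (grey). Aldehyde reductases lead the rises and Aldh1l1, Sult1a1, Aldh1a2 and Crabp2 the falls.

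The genes closest to a member in pattern were those with the smallest distance of centred log2 values over the 9 libraries, among 8106 genes averaging 5 FPKM or more. For Aldh1a1 they were Satb1, Hpcal4 and Prr12 (distances 0.41, 0.48 and 0.50). For Maoa they were Prkaa2, Ankrd34c and Map7d2 (0.11, 0.13 and 0.15), for Maob Elk4, Mdm4 and Atl3 (0.46, 0.47 and 0.52) and for Aldh2 Tmem145, Luc7l3 and Lamp2 (0.28, 0.28 and 0.29). Satb1 was at 64.4 ± 2.27 FPKM in dopaminergic neurons and 9.41 ± 1.54 FPKM in whole midbrain (SD), and Prkaa2 at 14.8 ± 0.97 and 9.08 ± 0.71 FPKM.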

How the data were processed

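RNA was sequenced from 4 dopaminergic neuron and 5 whole midbrain libraries. The authors deposited FPKM. Per the submitters' processing notes, TopHat2 2.0.8, Cufflinks 2.1.1 and the mm10 build were used, with the annotation, options and strand handling not given in the sources used here. No value of the dopaminergic libraries has over 6 significant digits, against 71.3 to 74.5 percent of values in whole midbrain libraries, so the form of the values differs with the groups. What was done to the whole midbrain values is not given in the sources used here. If they were averaged or rescaled before deposit, their depth, read numbers, SD and n would not have their usual meaning, which was not tested.

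On log2(FPKM + 1), limma 3.58.1 (R 4.3.3) was fitted to the 13106 genes averaging 1 FPKM or more, with a mean-variance trend, two-sided, and Benjamini-Hochberg adjustment over all of them (threshold 0.05). No count model was used. Ratios were compared by exact permutation. Depth was taken from the lowest value shared by at least 3 single-exon receptor genes, within 1 percent, assuming fragments of 200 bases. Sequences came from GENCODE M21 and RefSeq (GRCm38), and alignment used Biopython 1.88. Coordinates are the table's spans, counted from 1.

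The members, gene lists and the rule for named genes were chosen with earlier results of these data known. The rule named all 9 members. From each pathway list it named the 3 passing genes with the largest change and passing genes of at least 10 FPKM in a group. Of these, 2 are not reported here. It also named the 3 genes nearest in pattern to each of Maoa, Maob, Aldh1a1 and Aldh2. The oligodendrocyte, microglial, meningeal, serotonergic, astrocyte and dopaminergic marker lists are described in the text. The 9 endothelial and mural markers summed to 2.09 to 3.78 FPKM in dopaminergic and 113 to 160 FPKM in whole midbrain libraries, and the 4 noradrenergic ones to 0.00768 to 0.273 and 0.194 to 2.26 FPKM. Alternatives were other pseudocounts, filters and scalings, no trend, weighted libraries, a block by replicate number and leaving out each library.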

Additional observations from a re-analysis of the deposited data

Results flagged for a closer look

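The log2 ratio of Maoa to Maob was 1.02 in whole midbrain library 2, against -0.40 to -0.02 in the other 4 whole midbrain libraries, a gap of 0.734 of the range of the group. It was the 1 flag in 26 groups of values checked, and chance flags about 1 in 20. Without that library the difference between dopaminergic neurons and whole midbrain was 1.90.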

How the results depend on the processing

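The calls of Aldh1a1, Aldh1a7, Maob, Aldh2, Aldh7a1 and Aldh9a1 kept their direction and passed in every alternative that could test them, and Maoa in every one but TPM; Aldh2 was under the minimum mean of 5 FPKM. As TPM, genes called over the whole table numbered 2248 higher and 7393 lower, against 5014 and 4717, and those of the 3 pathway lists 3 and 16, against 9 and 10. With a minimum mean of 5 FPKM, 8669 genes were tested, of which 4177 were higher and 2493 lower. The median log2 fold change of all genes was then 0.26, so this filter shifted the balance of calls as well as their number. In the pathway lists, 14 genes were then tested, of which 7 were higher and 3 lower. Aldh3a2 turned to -0.60 as TPM, -0.10 after quantile normalization and -0.19 by the upper quartile, and ran from -0.0092 to 0.071 when 1 library was left out. The log2 ratio of Aldh1a1 to Aldh1a7 turned to 0.62 with a pseudocount of 5. The ratios without a pseudocount were an alternative chosen after seeing the data and kept all 4 directions. Same-numbered libraries deviated from their group means with correlations of -0.050 to 0.019, and 1 of 4 dopaminergic libraries correlated best with its own number. These values show no pairing by number, but so few libraries cannot settle whether the numbers pair them. With the replicate block 4554 genes were higher and 4355 lower, and all 7 member calls remained. Paired differences of the ratios were 1.64 (Maoa to Maob), -0.49 (Aldh1a1 to Aldh1a7), 4.20 (Aldh1a1 to Aldh2) and -2.16 (Aldh1a1 to Th), each with an exact sign-flip p of 0.125, the smallest that 4 pairs allow.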
